A study of Solanum lycopersicum with 21 samples.

Results

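The response of tomato leaves to flg15, a short synthetic peptide taken from bacterial flagellin, was read from 6 of the 21 arrays of the series, chosen by their sample labels alone. The set holds 3 arrays of plants sprayed with flg15 and 3 arrays of mock-sprayed plants, called non-treated controls (NTC), both of experiment 2. Plants of Solanum lycopersicum cv. Rio Grande were transplanted when 2 weeks old and treated 2 weeks later, with flg15 at 125 µM in water or, by the study's methods, with distilled water alone, and leaves were collected at 24 h. Every array held RNA pooled from 10 plants and was labelled as a biological replicate, so the spread between arrays is a spread between pools. The other groups, with 3 arrays each, were all of experiment 1. They were BP178 at 125 µM, salicylic acid (SA) at 2.5 mM, jasmonic acid (JA) at 2.5 mM, ethylene released from ethephon at 1 mM, and a separate set of NTC. BP178 is the antimicrobial hybrid peptide that the study developed, and flg15 served it as a known elicitor.

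Flagellin is the protein of the bacterial swimming filament. Plants sense a conserved stretch of it at the cell surface through FLS2, a leucine-rich repeat receptor kinase that works with co-receptors of the SERK family. Activation is known to cause calcium influx, an oxidative burst, MAP kinase signalling and WRKY transcription factor activity, followed by the secretion of pathogenesis-related (PR) proteins into the cell wall space. Tomato responds to flg15 as well as to longer flagellin peptides.

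Transcripts were measured on the GeneChip Tomato Gene ST array, and the deposited values are log2 intensities for 67795 probe sets. The medians of the 6 arrays lay between 2.67 and 2.83, so most probe sets were dim. Levels near 2 to 3 are therefore close to the floor of the array, and a fold change (FC) from such a level is compressed. Arrays of 1 group correlated on average at 0.976 to 0.983. The flg15 array of replicate 2 correlated at 0.979 with the other flg15 arrays and at 0.980 with the NTC arrays. It was the only array closer to the other group.

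The labels give leaf tissue, and the mesophyll markers RBCS-1 and CAB4 were bright on all arrays. RBCS-1, a small subunit of Rubisco, had levels of 11.66, 11.67 and 11.72 on the flg15 arrays and 11.46, 11.82 and 11.82 on the NTC arrays, and CAB4, a chlorophyll-binding protein, had 12.29, 12.58 and 12.42 on the flg15 arrays and 12.48, 12.54 and 12.60 on the NTC arrays. Of the 18 mesophyll markers listed, 3 could be matched to a probe set. The remaining one, PSBO, lay lower, at 6.07 to 6.54 with flg15 and 6.43 to 6.59 in NTC. The trichome marker MTS1 lay at 2.35 to 2.89 with flg15 and 2.32 to 2.70 in NTC, and 4 of 5 phloem markers averaged 6.33 to 6.70 with flg15 and 6.67 to 6.72 in NTC. Fruit markers (3 of 6 measured) averaged 3.54 to 3.66 with flg15 and 3.53 to 3.61 in NTC. Among them Psy1 lay at 6.69 to 6.97 with flg15 and 6.90 to 6.97 in NTC, above PSBO, while PG2 and EXP1 lay at 1.66 to 2.21. The level of a marker therefore did not by itself separate the leaf list from the fruit list. Root markers (2 of 4) averaged 2.54 to 2.65 with flg15 and 2.34 to 2.81 in NTC. None of the 13 measured markers of the 5 lists passed the test in limma. The smallest adjusted p among them was 0.349, and 1 had an unadjusted p below 0.05, as had 7825 of all 67795 probe sets.

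After flg15, 148 probe sets were higher and 26 were lower than in NTC in limma, counting an FC of 2 or more (0.5 or less for lower) with an adjusted p below 0.05. These are 0.218% and 0.0384% of all probe sets tested. The median log2 FC was 1.64 among those higher and -1.19 among those lower, against 0.02 over all probe sets, and the largest changes were 5.11 and -1.92. In leaf RNA a lower level can come from fewer cells of a type or from less RNA per cell, which cannot be told apart here. Of the 148, 49 had a log2 FC of at least 2, 18 of at least 3 and 4 of at least 4, whereas 6 of the 26 fell by 1.5 or more. The flg15 and NTC arrays did not overlap for any of the 174, while 7.58% of all probe sets lay apart in the higher direction and 6.41% in the lower. Because the 174 were called on these same arrays, their separation follows largely from the call and is no added support. When each array was left out in turn, 92 of the 148 kept their call in all 6 fits but only 3 of the 26 did. The count of lower probe sets was 151 without flg15 replicate 2, 73 without NTC replicate 1, 12 without NTC replicate 2, 7 without NTC replicate 3 and 8 without flg15 replicate 1. Another 60 probe sets were higher and 81 lower at an adjusted p below 0.05 with a smaller FC.

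The transcripts that rose had a median NTC level of 3.45, against 2.72 over all probe sets, and 52 of the 148 (35.1%) lay below the median level of the arrays, 2.80, in NTC. The transcripts that fell had a median NTC level of 4.73 and none of the 26 lay below that median. By annotation, 129 of the 174 carried a gene symbol and 161 had a description. Descriptions came from the study's own supplementary lists, so a gene family found through them holds just the transcripts picked by the study, and its share of higher members is not independent evidence. Members found by symbol did not have to be in those lists, but they too were chosen with earlier results of these data known. Of 122 in all lists, 10 were higher (8.20%) and 1 was lower, with a median log2 FC of 0.02, and of all 23194 probe sets with 1 symbol, 110 were higher (0.474%).

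**Figure D1:**
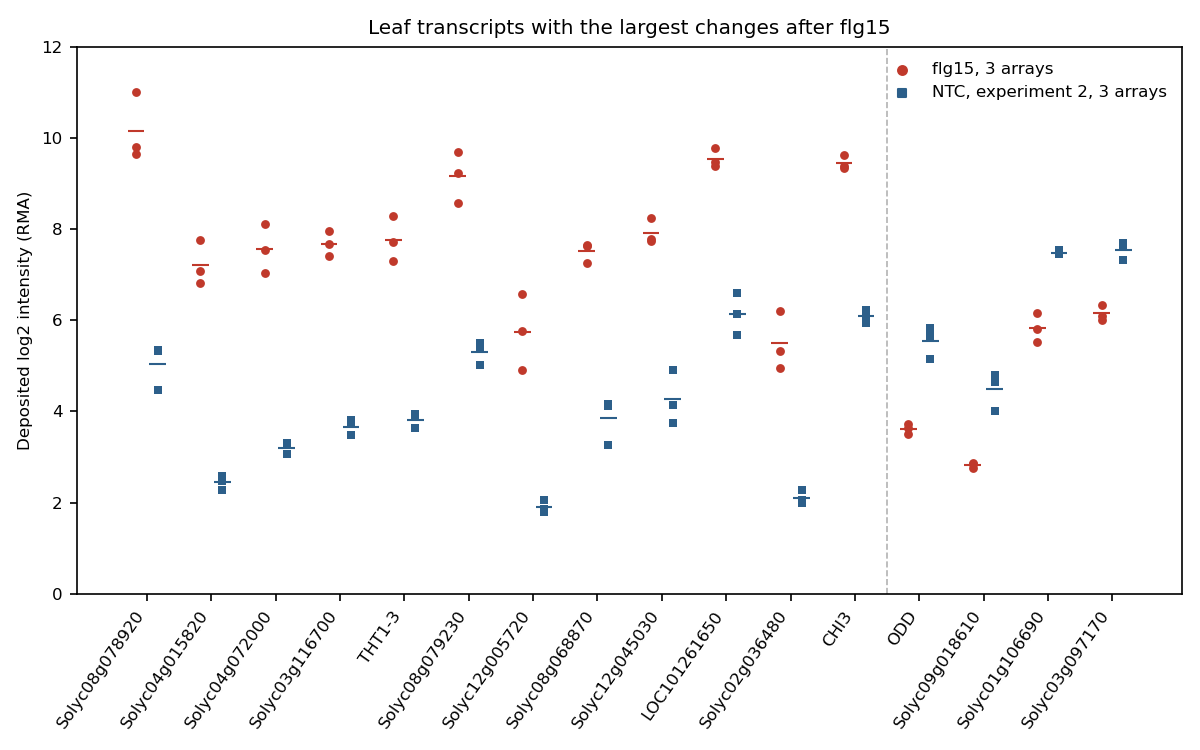
Deposited log2 intensity (RMA) on each of the 3 flg15 arrays (red circles) and the 3 NTC arrays of experiment 2 (blue squares), with the group mean as a bar, for the 12 largest increases and, right of the dashed line, 4 of the largest decreases. The proline-rich protein gene Solyc08g078920 reaches 11.02 with flg15 against at most 5.35 in NTC, and in none of the genes do the groups overlap. The genes were picked among those called on these same arrays, so this separation follows largely from the choice.

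The largest increase was in a gene of the small wall proteins related to lipid-transfer proteins. Solyc08g078920 encodes a proline-rich protein with a lipid-transfer-like domain. Its level was 11.02, 9.65 and 9.80 on the flg15 arrays against 4.47, 5.33 and 5.35 on the NTC arrays, a log2 FC of 5.11 (SE 0.48, adjusted p = 4.51e-06). The lowest flg15 array lay more than 4 units above the highest NTC array. Solyc08g079230, described as a cortical cell-delineating protein of the same class, stood at 9.69, 9.24 and 8.58 with flg15 against 5.01, 5.51 and 5.40 in NTC (log2 FC 3.86, SE 0.28, adjusted p = 2.56e-07). All 3 flg15 pools were again well separated from the controls. Its neighbour Solyc08g079190, abundant already in NTC, had 8.28, 7.76 and 7.99 with flg15 against 6.40, 6.84 and 6.75 in NTC (log2 FC 1.35, adjusted p = 0.00236). Dea1, first described in tomato as a gene responding to arachidonic acid, had 9.42, 8.45 and 8.17 with flg15 and 7.18, 7.51 and 7.48 in NTC (log2 FC 1.29, adjusted p = 0.0248). That call was lost in 4 of the 6 fits with 1 array left out, and its adjusted p was 0.128 without flg15 replicate 1. A non-specific lipid-transfer protein of class PR14, Solyc08g007460, had 7.39, 6.13 and 6.14 with flg15 against 3.10, 3.85 and 2.93 in NTC (log2 FC 3.26, adjusted p = 0.000442). Of the 6 members of this list found by description, 4 were higher, and of the 5 found by symbol 1 was (Dea1). The other symbol members, TSW12, LE16, ltpg1 and TPRP-F1, had log2 FCs between -0.48 and 0.23.

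Chitinases and glucanases, which break down the walls of fungi, formed the next group. Solyc04g072000, a chitinase of class PR4, had 8.12, 7.53 and 7.03 with flg15 against 3.06, 3.27 and 3.30 in NTC (log2 FC 4.35, SE 0.35, adjusted p = 1.15e-06). CHI3, an acidic endochitinase, had 9.34, 9.63 and 9.39 with flg15 against 5.93, 6.22 and 6.12 in NTC (log2 FC 3.36, SE 0.35, adjusted p = 2.07e-05). Both were clear of the NTC arrays by more than 3 log2 units. LOC101261650, a glucan endo-1,3-beta-glucosidase of class PR2, had 9.78, 9.47 and 9.38 with flg15 against 5.68, 6.61 and 6.14 in NTC (log2 FC 3.40, adjusted p = 4.45e-08). The acidic chitinase gene Solyc05g050130 had a log2 FC of 2.88 and the PR4 gene Solyc01g097270, bright in NTC already at a mean of 7.11, one of 2.01. PR-P2, another PR4 gene, stayed dim, at 2.79, 2.65 and 2.33 with flg15 and 1.56, 1.61 and 1.56 in NTC (log2 FC 1.01, adjusted p = 0.000442), and fell under the FC threshold in 2 of 6 fits with an array left out. Of 7 chitinases found by description 5 were higher, with a median log2 FC of 1.82, as was 1 of 3 found by symbol. A single one of 3 described glucanases passed, and the other two had log2 FCs of -0.17 and -0.32.

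Osmotins, the thaumatin-like proteins of class PR5, were higher for 3 of 4 described members. The fourth, the thaumatin-like gene Solyc11g066130, lay the other way, at 4.79, 4.33 and 4.36 with flg15 against 5.53, 5.65 and 5.19 in NTC (log2 FC -0.96, adjusted p = 0.198). Solyc08g080640 had 7.59, 6.92 and 6.53 with flg15 against 3.48, 4.50 and 3.19 in NTC (log2 FC 3.29, adjusted p = 3.56e-06), and Solyc08g080660 had 8.58, 7.22 and 6.94 with flg15 against 4.13, 4.60 and 4.33 in NTC (log2 FC 3.23, adjusted p = 0.000304). The flg15 pools varied among themselves by more than 1 unit, yet none came near an NTC array. Solyc08g080650 had a log2 FC of 2.38. Both osmotin-like genes found by symbol stayed under the threshold, with log2 FCs of 0.21 and 0.62.

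PR1 proteins bind sterols and are the most used markers of plant defense. The PR1a-like gene Solyc01g106620 had 6.96, 6.44 and 6.45 with flg15 against 3.65, 2.95 and 4.40 in NTC (log2 FC 2.95, SE 0.32, adjusted p = 3.23e-05). The PR1 genes found by symbol were dim, at a median of 1.97 in NTC, and had log2 FCs of -0.01 and 0.05. Major allergen Mal d 1-like genes, of the PR10 class of small ligand-binding proteins, were higher for 2 of 3, Solyc09g090980 (log2 FC 2.17, adjusted p = 0.000624) and Solyc09g091000 (log2 FC 1.26, adjusted p = 0.00100). TSI-1, the member of that list found by symbol, was not called (log2 FC 0.37, adjusted p = 0.393).

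Proteases and their inhibitors moved in the same direction where they moved. Solyc08g068870, an aspartic proteinase of the nepenthesin type, had 7.65, 7.63 and 7.26 with flg15 against 3.27, 4.12 and 4.16 in NTC (log2 FC 3.67, adjusted p = 4.51e-06). Papain-like cysteine proteases are secreted and are known targets of inhibitors made by pathogens. Here pip1 had 3.90, 4.24 and 3.44 with flg15 against 2.57, 2.32 and 2.35 in NTC (log2 FC 1.45, adjusted p = 0.000398), and both cathepsin B-like genes found by description were higher. One of them, Solyc02g076980, had 5.06, 5.76 and 4.55 with flg15 against 2.58, 2.54 and 2.49 in NTC (log2 FC 2.58, adjusted p = 2.58e-06). Among the subtilases of class PR7, P69B had 4.63, 4.66 and 4.22 with flg15 against 3.12, 3.22 and 2.69 in NTC (log2 FC 1.5, adjusted p = 0.00999), a call lost in 2 of 6 fits, with an adjusted p of 0.085 without NTC replicate 3. Its neighbour Solyc08g079900 had 5.22, 5.05 and 4.64 with flg15 against 3.86, 3.14 and 3.26 in NTC (log2 FC 1.55). It passed by the narrowest margin, at an adjusted p of 0.05 after rounding, and kept its call in 1 of 6 fits, with 0.221 without NTC replicate 2. Altogether 2 of 8 subtilases found by symbol and 2 of 5 found by description were higher.

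Protease inhibitors act against the digestive enzymes of insects and microbes. The Kunitz trypsin inhibitor gene Solyc03g098730 had 5.55, 5.80 and 5.66 with flg15 against 3.23, 3.13 and 3.49 in NTC (log2 FC 2.39, adjusted p = 2.58e-06). ER1, an ethylene-responsive proteinase inhibitor of type I, had 3.57, 3.01 and 3.31 with flg15 against 1.71, 1.89 and 2.29 in NTC (log2 FC 1.33, adjusted p = 0.0138), with a call kept in 2 of 6 fits and 0.103 without flg15 replicate 1. The proteinase inhibitor I gene Solyc09g084480 varied most among the flg15 pools. It had 5.49, 7.33 and 7.94 with flg15 against 3.17, 4.04 and 4.06 in NTC (log2 FC 3.17, SE 0.69, adjusted p = 0.0465). It kept its call in 1 of 6 fits, with 0.177 without flg15 replicate 3. In all, 4 of 9 inhibitors found by description and 1 of 4 found by symbol were higher.

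Class III peroxidases (PR9) use hydrogen peroxide to cross-link the wall. Of the 6 members found by description, 5 are described as peroxidases, of which 4 rose, and 1 as like a glutathione S-transferase, and 1 of 2 symbol members rose. Solyc03g025380 had 7.78, 7.19 and 5.77 with flg15 against 4.73, 3.82 and 4.09 in NTC (log2 FC 2.70, adjusted p = 0.00121). CEVI-1 and cevi16, both first found in tomato infected with a viroid, had log2 FCs of 2.26 (adjusted p = 0.00102) and 2.24 (adjusted p = 0.000160). With the NTC of both experiments as control, CEVI-1 had a log2 FC of 0.81 (adjusted p = 0.131), and with the 6 arrays fitted alone the calls of cevi16 (adjusted p = 0.055) and Solyc03g025380 (adjusted p = 0.0992) were lost. Blue copper proteins carry electrons at the cell surface, and Solyc03g116700 was the member with the largest change. It had 7.97, 7.67 and 7.41 with flg15 against 3.48, 3.71 and 3.81 in NTC (log2 FC 4.02, SE 0.27, adjusted p = 1.01e-07), and its neighbour Solyc03g116690 had a log2 FC of 1.84. A polyphenol oxidase gene, Solyc08g074630, of the enzymes that brown wounded leaves, had 7.05, 8.49 and 7.92 with flg15 against 5.30, 5.66 and 5.21 in NTC (log2 FC 2.43, adjusted p = 0.0234), a call kept in 1 of 6 fits, with 0.114 without NTC replicate 3.

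Several metabolic enzymes were among the larger increases. The omega-6 fatty acid desaturase gene Solyc04g040130 had the smallest adjusted p printed here. It had 5.73, 5.74 and 5.96 with flg15 against 2.29, 2.54 and 2.57 in NTC (log2 FC 3.34, SE 0.17, adjusted p = 3.47e-09), and its 3 flg15 pools differed by less than 0.3. The short-chain dehydrogenase gene Solyc12g045030 had 8.26, 7.78 and 7.74 with flg15 against 4.15, 3.75 and 4.92 in NTC (log2 FC 3.65, adjusted p = 1.36e-06). Glutathione S-transferases detoxify reactive compounds, and 2 of 18 found by description were higher, Solyc09g011560 (log2 FC 2.90, adjusted p = 2.70e-05) and Solyc09g011590 (log2 FC 1.72, adjusted p = 0.0120). The second of these kept its call in 4 of 6 fits, with 0.0964 without flg15 replicate 1. An unannotated gene, Solyc04g015820, had the second largest increase of all, at 7.76, 6.82 and 7.08 with flg15 against 2.27, 2.47 and 2.59 in NTC (log2 FC 4.77, SE 0.30, adjusted p = 4.45e-08).

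Hydroxycinnamic acid amides are phenolic compounds that plants deposit in walls at sites of attack. Tyramine hydroxycinnamoyl transferase (THT) makes them from tyramine and a hydroxycinnamoyl-CoA, and aromatic amino acid decarboxylases make such amines. THT1-3 had 8.29, 7.72 and 7.30 with flg15 against 3.63, 3.89 and 3.93 in NTC (log2 FC 3.95, SE 0.33, adjusted p = 1.36e-06). The related transferase genes Solyc08g068710 (7.46, 7.06 and 7.13 with flg15 against 4.30, 4.04 and 4.36 in NTC, log2 FC 2.99) and Solyc08g068690 (7.0, 6.68 and 6.91 with flg15 against 4.17, 3.97 and 4.26 in NTC, log2 FC 2.73) were separated as clearly. AADC1A, the decarboxylase next to them, had 5.73, 4.73 and 4.41 with flg15 against 2.47, 3.50 and 3.31 in NTC (log2 FC 1.86, adjusted p = 0.0183), and kept its call in 3 of 6 fits, with 0.133 without flg15 replicate 1. Of the 6 members found by symbol 2 were higher, and of the 9 found by description 2 were. The phenylalanine ammonia-lyase genes of the list had log2 FCs from -0.26 to 0.13. Of the 7 lignin precursor genes, 1 was lower, the cinnamoyl-CoA reductase-like gene Solyc03g097170 at 6.11, 6.33 and 6.01 with flg15 against 7.32, 7.70 and 7.64 in NTC (log2 FC -1.40, adjusted p = 0.0395). That call was kept in 2 of 6 fits, with 0.163 without NTC replicate 2.

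**Figure D2:**
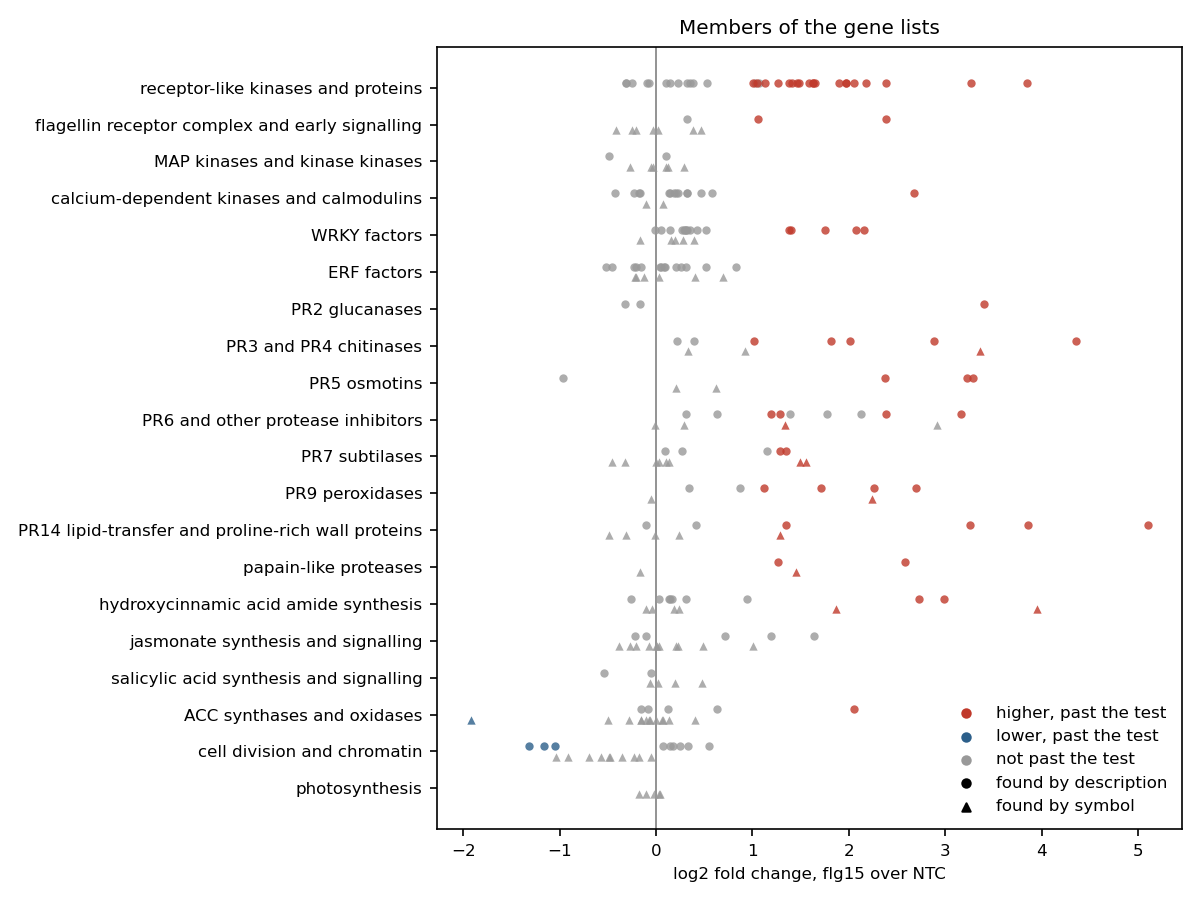
log2 fold change, flg15 over NTC, of every measured member of 20 gene lists, with members past the test in red (higher) or blue (lower) and the others in grey, found by description (circles) or by gene symbol (triangles). Circles come only from transcripts that the study had selected. Receptor-like kinases hold 20 higher members among 34, of which the study had selected 22 for flg15. The lists for MAP kinases, ERF factors, salicylic acid and photosynthesis hold no called member and none selected for flg15. The jasmonate list holds none called and 2 so selected. Of all probe sets, 0.218% were called higher, so lists of this size can hold none, and the lists are not compared with each other.

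Receptors were the family with the most called members. Of 34 receptor-like kinases and proteins found by description, 20 were higher and none lower, with a median log2 FC of 1.2; the study had selected 22 of the 34 for flg15 itself. The cysteine-rich receptor-like kinase gene Solyc12g005720 had 6.57, 5.76 and 4.91 with flg15 against 1.80, 1.86 and 2.05 in NTC (log2 FC 3.85, SE 0.36, adjusted p = 4.51e-06). Its flg15 pools spread over more than 1 unit, and its NTC level is at the floor of the array. Solyc07g062490, an S-locus glycoprotein-like receptor with a lectin domain, had 7.49, 6.05 and 6.13 with flg15 against 2.58, 3.70 and 3.61 in NTC (log2 FC 3.26, adjusted p = 2.36e-05). Solyc04g014400, annotated as a receptor kinase like FLS2, had 6.57, 6.78 and 6.16 with flg15 against 4.03, 3.84 and 4.49 in NTC (log2 FC 2.38, SE 0.22, adjusted p = 3.25e-06). Solyc10g076550, a receptor-like kinase gene, had a log2 FC of 2.18 and its neighbour Solyc10g076540, annotated as a wall-associated kinase, one of 1.97.

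Neither the flagellin receptor nor its known partners passed the test. Solyc02g070890, the gene known as tomato FLS2, had 3.27, 3.58 and 3.24 with flg15 and 2.44, 2.59 and 4.10 in NTC, so the groups overlapped (log2 FC 0.32, adjusted p = 0.837). SERK3A and SERK3B, the tomato co-receptors, had log2 FCs of 0.38 (adjusted p = 0.321) and -0.20 (adjusted p = 0.782), and all 7 symbol members of that list lay between -0.42 and 0.47. By description, the list held Solyc02g070890, Solyc04g014400 and a relative of RIN4, an immune regulator that pathogen effectors target in Arabidopsis. The RIN4-like gene Solyc09g059430 had 5.10, 5.10 and 5.19 with flg15 against 4.24, 3.81 and 4.16 in NTC (log2 FC 1.06, adjusted p = 0.00394), a call lost in 1 of 6 fits although its adjusted p stayed at or below 0.0443. Calreticulin is a chaperone of the endoplasmic reticulum that helps immune receptors of Arabidopsis to fold. Solyc04g048900, described as a calreticulin 2 calcium-binding protein, had 6.81, 7.01 and 6.56 with flg15 against 4.47, 4.18 and 3.71 in NTC (log2 FC 2.67, adjusted p = 4.51e-06). It was the 1 called gene of 16 in the list of calcium-dependent kinases and calmodulins, which it entered by its description. No kinase or calmodulin of that list was called. A role of the calreticulin in receptor folding was not tested.

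Downstream kinases and the oxidative burst gave small values. None of 8 MAP kinase genes was called in limma, and 0 had an unadjusted p below 0.05 (median log2 FC 0.03), against 7825 of all 67795 probe sets. MPK3 had 6.24, 6.78 and 6.48 with flg15 and 6.01, 6.23 and 6.38 in NTC, an overlapping pair of groups (log2 FC 0.29, adjusted p = 0.527). Wfi1, a respiratory burst oxidase that makes superoxide, had 7.64, 7.65 and 7.38 with flg15 against 6.40, 6.61 and 6.91 in NTC. It was higher on every flg15 array (log2 FC 0.92, SE 0.15, adjusted p = 0.00359) but stayed under the FC threshold. RBOH1, the other oxidase, had 4.70, 4.51 and 3.61 with flg15 and 4.63, 4.76 and 4.97 in NTC (log2 FC -0.51, adjusted p = 0.398).

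WRKY transcription factors bind the W-box of defense promoters. Of the 16 found by description 5 were higher, and the study had selected 5 of the 16 for flg15. None of the 5 found by symbol was called. Solyc08g082110 had 5.11, 5.48 and 4.94 with flg15 against 2.63, 3.21 and 3.23 in NTC (log2 FC 2.15, adjusted p = 4.86e-06). Solyc08g008280, of the same annotation, had 5.45, 5.22 and 5.06 with flg15 against 2.82, 3.29 and 3.40 in NTC (log2 FC 2.08, adjusted p = 9.62e-05), and Solyc03g007380 had 4.24, 3.55 and 4.17 with flg15 against 2.41, 1.95 and 2.34 in NTC (log2 FC 1.75, adjusted p = 3.62e-06). None of these 3 genes had an NTC array within 1 unit of a flg15 array. ERF factors, which act in ethylene and jasmonate signalling, had no called member among 20, with log2 FCs between -0.52 and 0.83. None of the 20 was selected by the study for flg15. An unadjusted p below 0.05 was found for 3, 2 of them higher, and for 7825 of all 67795 probe sets. The harpin-induced-like gene Solyc02g036480, of a family of membrane proteins involved in immunity, had 6.20, 5.32 and 4.96 with flg15 against 2.00, 2.06 and 2.27 in NTC (log2 FC 3.38, adjusted p = 1.79e-06). A heat stress factor gene, Solyc07g055710, had a log2 FC of 1.1 (adjusted p = 0.00100) and was the only called member of 16 in the heat shock list.

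Hormone genes stayed mostly under the threshold. None of 16 jasmonate genes was called (median log2 FC 0.02), although 5 were higher and 1 lower at an unadjusted p below 0.05. Over all probe sets, 7825 of 67795 passed that level in either direction. The lipoxygenase gene Solyc08g029000 came closest, at 4.90, 5.20 and 5.18 with flg15 against 3.75, 3.67 and 2.96 in NTC (log2 FC 1.64, adjusted p = 0.0577). It entered the list by its description as a lipoxygenase, and a part in jasmonate synthesis was not tested. None of 6 salicylic acid genes was called (median log2 FC -0.02), with 1 higher and 1 lower at an unadjusted p below 0.05, and NIM1, the tomato NPR1, had a log2 FC of -0.07 (adjusted p = 0.926). Among 18 probe sets of the ACC synthase and oxidase list, drawn up for the last steps of ethylene synthesis, 1 was higher and 1 lower. The list also took in ER5, described as a late embryogenesis abundant protein, and Solyc10g076670, described as an anthocyanidin synthase. It holds ACO4 on more than 1 probe set. Solyc11g007890, annotated as an ACC oxidase, had 4.42, 4.21 and 3.36 with flg15 against 1.88, 1.83 and 2.1 in NTC (log2 FC 2.06, adjusted p = 3.67e-06). ODD, a dioxygenase with a similar annotation, had 3.73, 3.51 and 3.64 with flg15 against 5.16, 5.66 and 5.83 in NTC (log2 FC -1.92, SE 0.18, adjusted p = 3.67e-06). It was the largest decrease of all, and one of the 3 that kept their call in every fit with an array left out. Such annotations cover a wide family of dioxygenases, so neither gene need make ethylene.

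Carbon supply genes rose for a few members. Wiv-1, a wound-induced invertase of the cell wall, had 5.12, 4.68 and 3.17 with flg15 against 2.43, 2.27 and 2.23 in NTC (log2 FC 2.01, adjusted p = 0.0269), with flg15 replicate 3 nearest to NTC. It kept its call in 2 of 6 fits, with 0.168 without flg15 replicate 1. The sugar carrier gene Solyc09g075820 had 6.88, 6.59 and 6.17 with flg15 against 4.45, 4.44 and 4.39 in NTC (log2 FC 2.12, adjusted p = 4.57e-05).

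The transcripts that fell included genes of cell division. Of 9 members found by description 3 were lower and none higher, and the study had selected 3 of the 9 for flg15. The 9 include 4 genes of F-box protein PP2-B1 and 1 homolog of the protease ftsH, which are not known for a role in cell division, so the 3 stand among 4 genes of a cyclin, a histone, a kinesin and a kinase inhibitor. The inhibitor krp2 had a log2 FC of 0.18 (adjusted p = 0.797). Solyc04g078470, a D-type cyclin that drives entry into the cell cycle, had 3.10, 3.46 and 3.33 with flg15 against 4.39, 4.67 and 4.79 in NTC (log2 FC -1.32, adjusted p = 0.00796). It kept its call in 4 of 6 fits, with 0.0628 without NTC replicate 3. Histone H3 gene Solyc01g080600 had 3.08, 2.29 and 1.86 with flg15 against 4.02, 3.53 and 3.14 in NTC (log2 FC -1.16, adjusted p = 0.0324), and the kinesin-like gene Solyc12g098630 had 2.17, 2.32 and 2.33 with flg15 against 3.12, 3.41 and 3.43 in NTC (log2 FC -1.05, adjusted p = 0.00920). Each of the pair kept its call in 3 of 6 fits, with 0.145 without flg15 replicate 3 for the histone and 0.0679 without NTC replicate 3 for the kinesin. None of the 10 members found by symbol was called, but all had log2 FCs below 0, with a median of -0.48 against 0.02 over all probe sets. An unadjusted p below 0.05 was found for 6 of the 10 and for 7825 of all 67795 probe sets. The lowest was cdkB2, a mitotic kinase (log2 FC -1.04, adjusted p = 0.0916), followed by CycA1, an A-type cyclin (log2 FC -0.92, adjusted p = 0.0957).

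Other decreases included genes of unknown function. Solyc09g018610 had 2.84, 2.77 and 2.86 with flg15 against 4.02, 4.65 and 4.79 in NTC (log2 FC -1.67, adjusted p = 0.000843), kept in all 6 fits. Solyc01g106690 had 5.51, 5.81 and 6.17 with flg15 against 7.45, 7.47 and 7.54 in NTC (log2 FC -1.66, adjusted p = 0.0137), kept in 3 of 6 fits, with 0.102 without flg15 replicate 1. Among the 10 largest decreases were 2 pairs of probe sets with identical values on every array, which count as 1 measurement each. Photosynthesis genes gave small values: 5 found by symbol, at a median level of 11.7 in NTC, had log2 FCs between -0.18 and 0.04. Of these, 0 had an unadjusted p below 0.05, against 7825 of all 67795 probe sets.

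Of the genes that the study also assayed by RT-qPCR, 7 matched 1 probe set. ETR6 was matched by its symbol. The others were found through the study's lists of transcripts selected for BP178, flg15 or SA. Their calls are therefore no independent check, and assayed genes without a match may still be measured on the array. The subtilase Solyc08g079900, the osmotin Solyc08g080660 and the blue copper protein Solyc03g116700 were called, as given above. The other 4 were not. Solyc10g081980, a harpin-induced-like gene, had 2.55, 2.02 and 2.59 with flg15 and 2.09, 2.13 and 1.85 in NTC (log2 FC 0.36, adjusted p = 0.623). The ERF gene Solyc09g089930 and the WRKY gene Solyc03g116890 each had a log2 FC of 0.31 (adjusted p = 0.624 and 0.783), and the ethylene receptor gene ETR6 had one of -0.10 (adjusted p = 0.935). These 4 sat at levels of about 2 to 4 on all 6 arrays. By RT-qPCR, the study reported overexpression with flg15 of its subtilase, osmotin and blue copper genes. It reported the same for its harpin, ERF and WRKY genes, so for Solyc10g081980, Solyc09g089930 and Solyc03g116890 the array calls differ from that assay. The study itself reported a significant correlation between its RT-qPCR and microarray values. The reason for the differing calls was not tested, and a gene not called here is not shown to be without a response.

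Some genes called higher lay next to each other on the chromosomes. In the RefSeq gene order of assembly SLM_r2.1, 29 of 109 placed genes called higher (26.6%, exact 95% interval 18.6 to 35.9%, which covers counting error only) had another such gene within 5 genes, as had 690 of all 21238 placed genes (3.25%). This distance counts every gene of that order, measured on the array or not. Within 1 gene the shares were 9.17% and 0.720%, and within 10 genes 27.5% and 6.07%. None of 19 placed genes called lower had such a neighbour, against 0.659% of all genes. Called genes were also joined by their Solyc locus numbers, which follow the chromosome and exist for genes with no place in the RefSeq order, where these differed by at most 50. By either order, 39 probe sets formed 17 runs, most of them of 1 family. Members of 1 family can share sequence, so part of a probe set's signal may come from a neighbour; this was not tested.

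**Figure D3:**
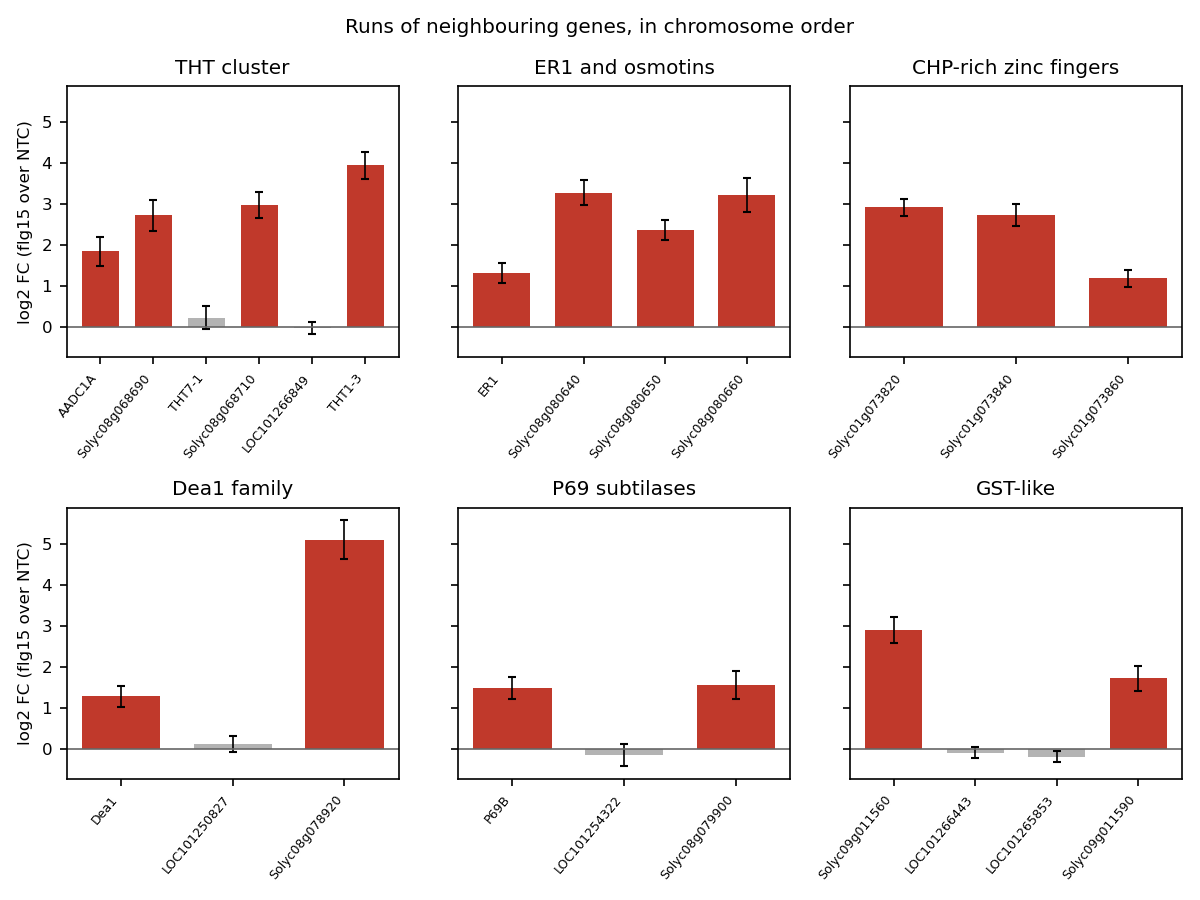
log2 fold change, flg15 over NTC, with its SE, for the measured genes of 6 runs in chromosome order; red bars passed the test and grey bars did not. In the run of hydroxycinnamic acid amide genes, THT1-3 and 3 others reach 1.86 to 3.95 while the THT7-1 and LOC101266849 between them stay at 0.24 and -0.01.

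The longest run held AADC1A, Solyc08g068690, Solyc08g068710 and THT1-3, all higher. Between them lay THT7-1, whose level was 7.67 with flg15 and 7.43 in NTC (log2 FC 0.24, adjusted p = 0.818), and the dim LOC101266849 (log2 FC -0.01). A bright member of the same family thus did not follow its neighbours. A run of equal length held the inhibitor ER1 and the osmotins Solyc08g080640, Solyc08g080650 and Solyc08g080660, and a shorter one held the CHP-rich zinc finger genes Solyc01g073820 (log2 FC 2.93), Solyc01g073840 (log2 FC 2.75) and Solyc01g073860 (log2 FC 1.2). The middle one had 5.43, 4.06 and 4.01 with flg15 against 1.82, 1.91 and 1.53 in NTC, and the outer ones likewise started at the floor of the array. Dea1 and Solyc08g078920 flanked LOC101250827 (log2 FC 0.12). The other pairs joined glutathione S-transferases, Mal d 1-like proteins, Kunitz inhibitors, xylanase inhibitors, PR4 chitinases, blue copper proteins, P69 subtilases, receptor-like kinases, cathepsin B-like proteases and cortical cell-delineating proteins. Some of these pairs flanked measured genes that were not called. These were TSI-1 (log2 FC 0.37) between the Mal d 1-like genes and LOC101266443 and LOC101265853 (-0.09 and -0.18) between the transferases. LOC101254322 (-0.15) lay between the subtilases and LOC101244795 (-0.20) between the cell-delineating protein genes. A resistance protein gene of the NBS-LRR class, Solyc07g056200 (log2 FC 1.84), stood beside the unannotated Solyc07g056210 (log2 FC 1.52), the malic enzyme gene ME2 (log2 FC 1.27) beside the chitinase Solyc05g050130, and the phosphate transporter gene Solyc09g090080 (log2 FC 1.64) beside Solyc09g090070 (log2 FC 1.90), which the annotation leaves uncharacterized.

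BP178 was sprayed at the same dose of 125 µM and read at the same 24 h, but in experiment 1 with its own NTC. It raised 84 probe sets (0.124% of all). Of the 148 raised by flg15, 33 were also raised by BP178, which is 22.3% of the flg15 list and 39.3% of the BP178 list. None of the 148 was lowered by BP178, which lowered just 9 probe sets in all, so this count says little. The median BP178 response of the 148 was a log2 FC of 0.47, against -0.01 over all probe sets. The difference itself, the flg15 response minus the BP178 response, passed an adjusted p below 0.05 in limma for 37 probe sets in the higher direction (0.0546%) and 22 in the lower (0.0325%). Of the 148, 29 passed it, all with the larger response to flg15. Among the 115 that BP178 did not raise, 27 passed, so for the other 88 a call with flg15 alone does not show a difference between the peptides.

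**Figure D4:**
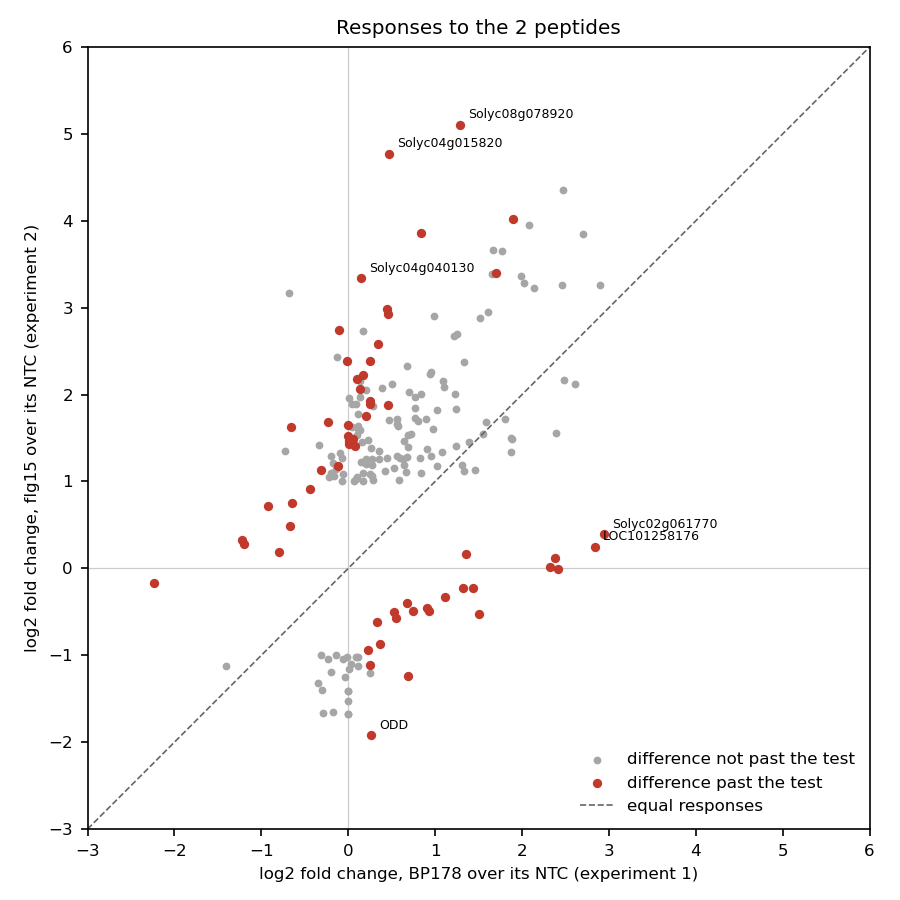
log2 fold change with flg15 (vertical axis) against log2 fold change with BP178 (horizontal axis), each over the NTC of its own experiment, for the 201 probe sets called with flg15 or past the test of the difference; the 59 past that test are red and the dashed line marks equal responses. Solyc04g015820 and Solyc04g040130 lie at 4.77 and 3.34 with flg15 and at 0.47 and 0.15 with BP178.

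The 5 genes with the largest difference in favour of flg15 had log2 FCs from -0.11 to 1.28 with BP178. Solyc04g015820, of unknown function, had a log2 FC of 4.77 with flg15 and 0.47 with BP178 (difference 4.30, SE 0.42, adjusted p = 0.000108), and the proline-rich Solyc08g078920 had 5.11 with flg15 and 1.28 with BP178 (difference 3.82, SE 0.68, adjusted p = 0.0351). For the desaturase Solyc04g040130 they were 3.34 with flg15 and 0.15 with BP178 (difference 3.19, SE 0.24, adjusted p = 3.75e-06). Solyc08g079230, the cell-delineating protein, had a difference of 3.02 (SE 0.40, adjusted p = 0.00247) and the zinc finger Solyc01g073840 one of 2.86 (SE 0.37, adjusted p = 0.00166). Of these 5, only the proline-rich gene lost the call when an array was left out (adjusted p up to 0.100). The FLS2-like Solyc04g014400 had 2.38 with flg15 and -0.01 with BP178 (difference 2.40, adjusted p = 0.00166).

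On the other side stood genes that BP178 raised and that were not called with flg15. LOC101258176, like a polyphenol oxidase, had a log2 FC of 0.25 with flg15 and 2.83 with BP178 (difference -2.58, SE 0.32, adjusted p = 0.00142). The endochitinase Solyc02g061770 had 0.39 with flg15 and 2.94 with BP178 (difference -2.55, adjusted p = 0.0137), and its levels in experiment 2 were 2.57, 3.07 and 2.96 with flg15 against 2.48, 2.21 and 2.74 in NTC. The glycosyltransferase Solyc03g078490, the cytochrome P450 Solyc09g066400 and the FAD-binding protein Solyc02g079440 had log2 FCs of -0.01, 0.01 and 0.12 with flg15 and 2.42, 2.32 and 2.38 with BP178. The differences for Solyc02g061770, Solyc03g078490 and Solyc09g066400 lost the call when an array was left out, with adjusted p up to 0.0646, 0.101 and 0.0925. Among genes called with both peptides, the PR2 glucanase LOC101261650 was not alone in differing past the test. Its difference was 1.69 (adjusted p = 0.0358), a call lost when an array was left out (adjusted p up to 0.106). Others did not: the response of the transferase gene THT1-3 was larger with flg15 by 1.88 (SE 0.46, adjusted p = 0.158), that of the chitinase CHI3 by 1.37 (SE 0.50, adjusted p = 0.384) and that of the osmotin Solyc08g080640 by 1.26 (SE 0.42, adjusted p = 0.338). These standard errors leave room for a difference of over 2 log2 units, so equal action is not shown. The Mal d 1-like Solyc09g090980 had close values, 2.17 with flg15 and 2.48 with BP178 (difference -0.31, SE 0.42, adjusted p = 0.872).

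The controls of the experiments differed in the genes that flg15 raised. In 115 of the 148, the NTC of experiment 2 was lower than the NTC of experiment 1, for 50 of them at an adjusted p below 0.05, and for 5 it was higher at that level. Over all probe sets 2.37% were lower and 2.46% higher. The 148 were called for lying above the NTC of experiment 2, so genes low in that NTC are favoured among them, and these counts are a description with no test. The glucanase LOC101261650 averaged 9.54 ± 0.21 with flg15 and 6.14 ± 0.47 in its NTC, but 11.47 ± 0.20 with BP178 and 9.76 ± 0.43 in the NTC of experiment 1 (SD, n = 3 each). For 16 of the 148, the mean with flg15 was below the mean of the mock-sprayed plants of experiment 1. Other genes had alike controls: the desaturase Solyc04g040130 averaged 5.81 ± 0.13 with flg15, 2.47 ± 0.15 in its NTC, 2.31 ± 0.29 with BP178 and 2.16 ± 0.19 in the NTC of experiment 1. ODD, lower after flg15, averaged 3.63 ± 0.11 with flg15 and 5.55 ± 0.35 in its NTC, against 9.07 in the NTC of experiment 1. With the NTC of both experiments as control, 18 of 84 named probe sets lost their call. Among them were CEVI-1, P69B, ER1, Dea1, PR-P2, ME2, the polyphenol oxidase Solyc08g074630 and the RIN4-like Solyc09g059430, and of the decreases Solyc04g078470, Solyc01g080600, Solyc12g098630 and Solyc09g018610. With the 6 arrays fitted alone 25 of the 84 did, among them cevi16, AADC1A, Wiv-1, ER1, Dea1, PR-P2, Solyc03g116690, Solyc08g079900, Solyc09g011590, Solyc09g059430, Solyc09g084480, Solyc09g091000 and Solyc01g080600. The part of these control levels in the flg15 response was not tested. The experiment and the peptide cannot be told apart in any direct comparison of flg15 with BP178 arrays.

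**Figure D5:**
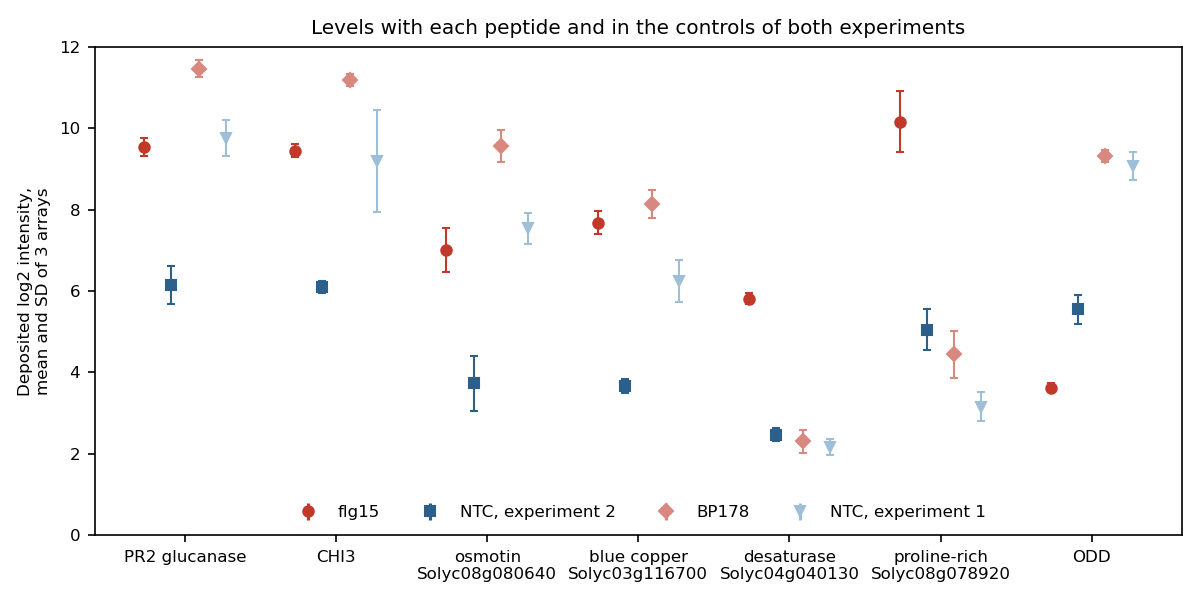
Mean deposited log2 intensity with its SD over 3 arrays, for 7 genes, with flg15 and the NTC of experiment 2 followed by BP178 and the NTC of experiment 1. For the PR2 glucanase, CHI3 and ODD the NTC of experiment 1 lies above that of experiment 2, while the desaturase gene is near 2 in both.

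The hormone treatments shared the NTC of experiment 1 with each other and with BP178, and none of them shared a control with flg15. SA raised 1531 probe sets (2.26%), JA 1109 (1.64%) and ethylene 800 (1.18%). Of the 148 raised by flg15, 61 were raised by SA (41.2% of the flg15 list and 3.98% of the SA list), 44 by JA (29.7% and 3.97%) and 32 by ethylene (21.6% and 4.0%). In the other direction SA lowered 5 of the 148, JA 5 and ethylene 3. The shares lowered over all probe sets are not given here, so these counts are a description only. The median responses of the 148 were log2 FCs of 0.70 with SA, 0.36 with JA and 0.32 with ethylene, against 0.01, 0.02 and -0.02 over all probe sets. The 6 probe sets raised by every treatment included THT1-3, the PR4 chitinase Solyc04g072000, CHI3, the short-chain dehydrogenase Solyc12g045030 and the lectin receptor Solyc07g062490.

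The hormone patterns of single genes varied widely. Solyc02g036480, the harpin-induced-like gene, had a log2 FC of 3.38 with flg15, 4.14 with SA, 0.73 with JA and -0.06 with ethylene. Osmotin Solyc08g080660 had 3.23 with flg15, -0.85 with SA, 2.95 with JA and 4.30 with ethylene. The proteinase inhibitor I gene Solyc09g084480 had 3.17 with flg15 and 7.80 with JA, but -1.63 with SA and -1.38 with ethylene, and the aspartic proteinase Solyc08g068870 had 3.67 with flg15 and 3.08 with SA but -2.40 with JA. By these calls, 53 of the 148 (35.8%) were raised by none of the other 4 treatments, and 16 of the 53 also passed the test of a difference from BP178. Differences from the hormones were not tested. Among the 53 were the proline-rich Solyc08g078920 and the cell-delineating Solyc08g079230 (SA -0.45 and -0.13, JA 0.43 and 0.64, ethylene 0.89 and 0.48), as well as the desaturase Solyc04g040130, the FLS2-like Solyc04g014400, the calreticulin Solyc04g048900 and the WRKY gene Solyc03g007380.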

How the data were processed

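Leaf RNA of 21 pools was hybridised to GeneChip Tomato Gene ST arrays. The authors background-adjusted, normalized and summarized probe signals with the RMA algorithm of Expression Console (version not given in the sources used here), and the deposited values are log2 intensities from 0.956 to 13.8. Arrays carry no read depth, so the 3 arrays per group limit the precision. A linear model with 1 mean for each group was fitted to every one of the 67795 probe sets, over all 21 arrays, with limma 3.58.1 (R 4.3.3), and p-values, two-sided, were adjusted by Benjamini-Hochberg over all probe sets. The difference between peptides was a contrast of both changes with no minimum FC. The fit was tested on simulated data.

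By the array annotation, 23194 probe sets had 1 symbol, 170 had several and 44431 had none. Descriptions were found for 770, in the study's lists. Members and gene lists were chosen with earlier results of these data known. Genes named are the 20 largest increases and 10 largest decreases with separate arrays, up to 4 called members per list (the 2 smallest p where none was called), the 5 largest differences between peptides per side, matched RT-qPCR genes and runs of neighbours; list members named with small changes, Solyc02g070890, Solyc11g066130, krp2, SERK3A, SERK3B, NIM1, CycA1 and cdkB2 included, were chosen after their values were seen. Promoter motifs were not analysed, since no sequences were used here. Replicate numbers were not taken to pair arrays. Alternatives were another normalization, centring, prior, filter, threshold, control set or fit, and each array left out.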

Additional observations from a re-analysis of the deposited data

Results flagged for a closer look

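For 25 named genes the response to flg15 and the response to BP178, each over the NTC of its own experiment, differed at an adjusted p below 0.05 in limma's contrast of both changes. The differences below are flg15 response minus BP178 response on the log2 scale.

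On the side of flg15, the largest were in the unannotated gene Solyc04g015820 (4.30), the proline-rich Solyc08g078920 (3.82), the desaturase Solyc04g040130 (3.19), the cell-delineating protein gene Solyc08g079230 (3.02) and the zinc finger gene Solyc01g073840 (2.86). Next came the THT-like Solyc08g068710 (2.54), the zinc finger gene Solyc01g073820 (2.47), the FLS2-like Solyc04g014400 (2.40), the cathepsin B-like Solyc02g076980 (2.25), the Kunitz inhibitor Solyc03g098730 (2.14), the blue copper protein Solyc03g116700 (2.12) and the receptor-like kinase Solyc10g076550 (2.08). Smaller ones were those of the ACC oxidase-like Solyc11g007890 (1.92), the glucanase LOC101261650 (1.69), the uncharacterized Solyc09g090070 (1.65), the WRKY gene Solyc03g007380 (1.54), the unannotated Solyc07g056210 (1.52) and the oxidase Wfi1 (1.35).

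On the opposite side were LOC101258176 (-2.58), Solyc02g061770 (-2.55), Solyc03g078490 (-2.43), Solyc09g066400 (-2.31), Solyc02g079440 (-2.26), ODD (Solyc12g006380, -2.18) and the ERF gene LOC101258880 (-2.03). For LOC101258880 the levels averaged 4.72 with flg15 and 5.24 in its NTC, against 3.20 in the NTC of experiment 1.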

How the results depend on the processing

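Of 106 named genes, the calls of flg15 against NTC changed in 205 of 1774 refits and the direction in 19, all of genes not called. Fitted alone, the 6 arrays gave 88 probe sets higher and 15 lower, and 49 list members higher. Lower probe sets numbered 40 with median centring, 52 with array weights, 271 with the NTC of both experiments, 8 at an adjusted p below 0.01 and 107 with no minimum FC; list members lower were 3 at 0.01. With the NTC of both experiments 208 were higher, 43.4% of calls against 85.1%; with median centring the share was 75.2% and with array weights 74.3%. With an array left out, higher counts ranged from 110 to 180, lower from 7 to 151, and list members lower from 2 to 6. For the difference between peptides, counts ranged from 19 to 52 higher and 7 to 57 lower, and median centring gave 22 higher. Counted within 1 gene, 9.17% of genes called higher had a neighbour. The block for the replicate number gave 145 higher and 29 lower; same-numbered arrays deviated together at correlations of only 0.06, 0.03 and -0.02, so the numbers were not taken as pairs.

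Direction turned for some uncalled genes. With the NTC of both experiments the log2 FC was -0.0761 for Solyc02g079440, -0.141 for MPK3, -0.513 for NML2, -0.0933 for Solyc09g066400 and 0.495 for LOC101258880. Solyc09g066400 was also -0.0566 with quantile normalization, -0.0619 with median centring and -0.0230 with array weights, and Solyc03g078490 was 0.0271 with array weights. With an array left out, Solyc03g078490 ranged from -0.147 to 0.0631, Solyc09g066400 from -0.0307 to 0.100, Solyc02g079440 from -0.0562 to 0.276 and ETR6 from -0.231 to 0.0942. The cause was not tested. The array's dim floor limits fold changes from NTC levels near 2, and the promoter motif alternative was not run.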
